A study of Mus musculus with 12 samples.

Results

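The genes followed here are 10 chemokine ligands, Cxcl1, Cxcl2, Cxcl3, Cxcl5, Cxcl10, Cxcl12, Ccl2, Ccl7, Ccl5 and Cx3cl1, measured by RNA-seq in mouse embryonic fibroblasts (MEFs). They were taken by name and matched by mouse gene symbol to the Ensembl identifiers of the count files, which hold 37991 identifiers. All 10 had an identifier and all 10 passed the filter on low counts. The list was drawn up with the difference between the genotypes in these samples already known. The values that compare genotypes are therefore a description of these genes and are given without a test. The responses to DNA damage within each genotype, and the difference between these responses, were tested.

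Primary MEFs at passage 3, isolated from FVB embryos of day 13.5, were either wild-type or homozygous for the E2f1 3KR allele, and were left untreated or given neocarzinostatin (NCS) at 250 ng/ml for 3 h. NCS is a radiomimetic drug, which breaks both DNA strands as ionizing radiation does. The 3KR allele replaces with arginine the 3 lysines at which the transcription factor E2F1 is acetylated, and the study asked what this mutation does to gene expression before and after damage. There were 3 samples in each of the 4 groups. The knock-in line was made with a zinc finger nuclease, and the allele is present in every cell of the animal from conception, so all 3KR cultures carried it throughout development and in culture. Embryos came from crosses of heterozygous or homozygous parents, and which embryo or litter gave which sample is not stated. The p-values therefore measure the spread between these samples, which may be partly technical.

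Chemokines are small secreted proteins that draw leukocytes along a gradient by binding G protein-coupled receptors. They are grouped by the spacing of conserved cysteines near their start, as CXC, CC or CX3C. Fibroblasts make many of them as part of the inflammatory response. Several, such as Cxcl1 and Ccl2, are switched on within hours by NF-kappaB after interleukin-1, tumor necrosis factor or Toll-like receptor signals, Cxcl10 also answers to interferons, and Cxcl12 is made by stromal cells without stimulation and retains stem cells and leukocytes in their niches.

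Each sample held 33203757 to 45279321 counted reads. At this depth 3 counts, taken as the floor, stood for 0.0663 to 0.0904 CPM (counts scaled to the total of the library). All 11 fibroblast markers (Col1a1, Pdgfra, Thy1, Dcn and others) were over the floor in every sample, with a sum of 44936 to 46368 CPM in wild-type and 51517 to 55028 CPM in 3KR samples. Between genotypes 10 of them were called higher and 1 lower in untreated 3KR MEFs, and 9 higher and 1 lower in NCS-treated 3KR MEFs. Of all tested genes, 22.1% were higher and 23.6% lower without treatment, and 22.9% and 23.6% after NCS. After NCS 4 markers rose and 1 fell in wild-type MEFs, where 14.3% of all tested genes rose and 12.4% fell. In 3KR MEFs 2 rose and 6 fell, where 15.8% of all tested genes rose and 15% fell. The part of the fibroblast markers in the chemokine values was not tested. All 17 macrophage markers (Adgre1, Csf1r, Ptprc, C1qa and others) were over the floor as well, with a sum of 135 to 162 CPM in wild-type and 246 to 280 CPM in 3KR samples. Lymphocyte markers were close to absent, at no more than 0.378 CPM in sum. E2f1 itself differed by -0.03 on the log2 scale between untreated genotypes (edgeR adjusted p = 0.710), and these counts do not read the mutated codons. Xist, transcribed from the inactive X, stood at 32.3 to 62.5 normalized counts in wild-type and 30590.1 to 35635 in 3KR samples, while Y-linked Ddx3y stood at 5370.3 to 5822 in wild-type and at no more than 16.2 in 3KR samples. The wild-type cells thus carried the pattern of male and the 3KR cells that of female cells, and sex and genotype cannot be told apart in any comparison between genotypes. The samples with replicate number 3 of wild-type MEFs, untreated and NCS, also stood apart from the other wild-type samples. Compared with them, their chi-square over genes was 8.97 to 11.3 per gene, where all other pairs within a group gave 2.08 to 2.46. Results that rest on these 2 samples are given with and without them.

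The promoters of 4 of the genes are printed because they hold the recognition sequences through which NF-kappaB or interferon signals are known to reach chemokine genes. Each sequence is the 250 bases before the RefSeq transcription start (GRCm38.p6), read 5′ to 3′ on the strand of the gene, and capitals mark matches to the motifs named after the sequences. Of the 10 genes, 6 were matched to a RefSeq promoter, and Cxcl5, Ccl2, Ccl7 and Ccl5 were not. The regions are chr5:90890995-90891244 for Cxcl1, chr5:90903649-90903898 for Cxcl2, chr5:90785851-90786100 for Cxcl3, all on the plus strand, and chr5:92348890-92349139 on the minus strand for Cxcl10.
Cxcl1: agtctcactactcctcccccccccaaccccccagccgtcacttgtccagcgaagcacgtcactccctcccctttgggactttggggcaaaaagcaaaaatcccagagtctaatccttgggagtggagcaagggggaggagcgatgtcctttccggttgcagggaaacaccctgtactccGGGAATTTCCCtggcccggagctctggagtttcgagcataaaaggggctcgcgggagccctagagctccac
Cxcl2: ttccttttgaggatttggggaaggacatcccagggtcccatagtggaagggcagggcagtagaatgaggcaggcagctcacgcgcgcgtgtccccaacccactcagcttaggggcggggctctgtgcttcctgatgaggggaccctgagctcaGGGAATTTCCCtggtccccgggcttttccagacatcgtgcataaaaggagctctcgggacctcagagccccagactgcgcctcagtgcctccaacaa
Cxcl3: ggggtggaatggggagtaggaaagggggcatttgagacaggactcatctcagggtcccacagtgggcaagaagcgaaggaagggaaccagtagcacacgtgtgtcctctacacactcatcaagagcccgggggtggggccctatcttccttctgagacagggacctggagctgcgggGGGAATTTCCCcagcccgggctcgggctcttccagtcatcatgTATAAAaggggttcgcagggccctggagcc
Cxcl10: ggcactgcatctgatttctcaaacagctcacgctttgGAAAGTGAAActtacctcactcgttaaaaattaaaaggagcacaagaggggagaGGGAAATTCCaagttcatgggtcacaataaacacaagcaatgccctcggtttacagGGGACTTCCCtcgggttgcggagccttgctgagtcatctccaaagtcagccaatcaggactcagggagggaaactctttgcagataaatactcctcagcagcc
Cxcl1, Cxcl2 and Cxcl3 share the same kappaB match, GGGAATTTCC. It begins 71 bases before the start in Cxcl1, 97 in Cxcl2 and 73 in Cxcl3, and in each of them the reverse strand matches as well, shifted by 1 base. The Cxcl10 promoter holds 2 different kappaB matches, GGGAAATTCC beginning 159 bases and GGGACTTCCC beginning 103 bases before the start. It also holds GAAAGTGAAA beginning 213 bases before the start, a match to the interferon-stimulated response element GAAANNGAAA. None of these matches overlaps a match to another of the motifs searched. On either strand, the kappaB consensus was found in 3.9% of all 32841 promoters of this length, GAAANNGAAA in 2.98% and TATAAA in 12.4%. TATAAA begins 30 bases before the start of Cxcl3 and 6 bases before that of Cx3cl1. The Cxcl12 promoter held no match to any of the motifs, and the E2F motifs TTTCCCGC, TTTCGCGC, TTTGCCGC and TTTGGCGC, present in 1.86% of promoters, were in none of the 6 windows. A match is a run of letters and no measurement of binding.

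The 4 neutrophil-attracting genes and Cxcl10 lie on chromosome 5, Ccl2, Ccl7 and Ccl5 on chromosome 11, Cxcl12 on chromosome 6 and Cx3cl1 on chromosome 8. Levels of different genes were compared per kilobase of exon. In untreated wild-type MEFs the highest mean was that of Cx3cl1, with 1224 normalized counts per kb, followed by Ccl7 with 959 and Ccl2 with 892, whose ranges over samples overlapped. Cxcl12 with 385 and Cxcl5 with 113 came next and stood clear of their neighbors. Cxcl1, Ccl5 and Cxcl10 lay between 7.11 and 17.9 per kb, each overlapping the next, and Cxcl3 and Cxcl2 were last with 1.14 and 0.167. In untreated 3KR MEFs the order by level per kb was Ccl7, Ccl2, Cx3cl1 and Cxcl5, with 2923, 2149.8, 2083 and 1795, and no overlap between neighbors. Cxcl12 with 520.4 and Cxcl1 with 155 followed, then Cxcl3, Cxcl10 and Ccl5 between 34.4 and 40.0, which overlapped, and Cxcl2 with 10.4. After NCS, Cxcl5 stood at 2208 per kb in 3KR MEFs, above Cx3cl1 at 1743 and overlapping Ccl2 at 2268. Summed over the 10 genes, expression was 255 to 276 CPM in untreated and 247 to 254 CPM in NCS-treated wild-type MEFs, and 562 to 567 and 501 to 516 CPM in 3KR MEFs. The share of this sum that came from Cxcl1, Cxcl2, Cxcl3 and Cxcl5 was 2.24% to 2.81% in the 6 wild-type samples, 17.6% to 18.7% in untreated 3KR samples and 23.7% to 24.0% in NCS-treated 3KR samples.

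**Figure D1:**
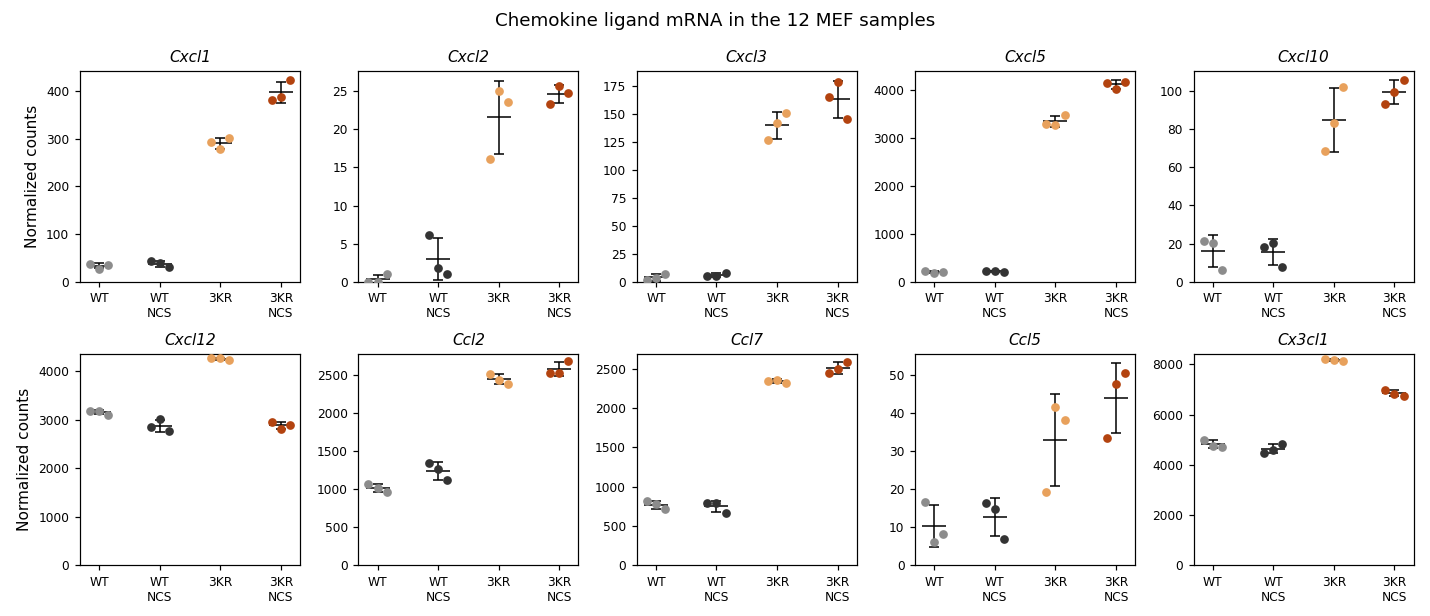
Normalized counts (counts divided by the DESeq2 size factors, linear axes from 0) of the 10 chemokine ligands in each of the 12 samples, grouped as wild-type (WT) and 3KR MEFs with and without NCS. Points are samples, the long bar is the mean and the short bars the SD of 3 samples; in untreated MEFs the 3KR points lie above all wild-type points in every panel, and after NCS in every panel but that of Cxcl12, where 3KR samples span 2814 to 2956 and wild-type samples 2770.3 to 3014.

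NCS changed 2 of these genes in wild-type MEFs. Ccl2 rose and Cxcl12 fell, and none of the others passed the test. NCS changed 26.7% of all 15327 tested genes in wild-type MEFs, 14.3% upward and 12.4% downward, so 2 of 10 was near the background. In 3KR MEFs, Cxcl1 and Cxcl5 rose and Cxcl12 and Cx3cl1 fell, which made 4 of 10 against 30.8% of all tested genes, 15.8% higher and 15% lower. The response differed between the genotypes for 2 of 10, Cxcl12 and Cx3cl1, both with a lower value in 3KR MEFs, where 3.73% of all genes differed and 1.87% had a lower value. The median log2 response of the 10 genes was 0.10 in wild-type and 0.20 in 3KR MEFs, against 0.01 and 0.00 over all tested genes. All adjusted p-values are from the quasi-likelihood F test of edgeR, two-sided and corrected over the 15327 genes, and log2 values are given with their standard errors. The comparisons share samples, since the untreated groups enter both the NCS and the genotype comparisons. The genes were listed with the genotype difference known, so the test of the difference in response is not independent of that choice. Nothing is read from the count of 2 of 10.

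**Figure D2:**
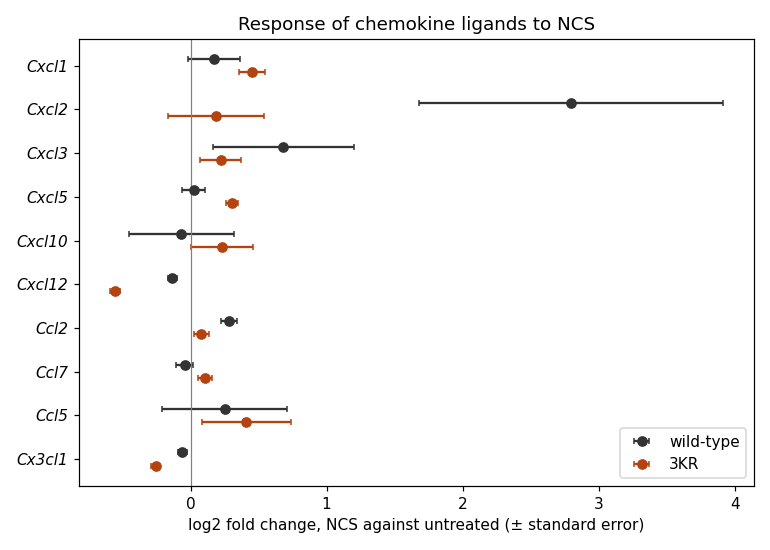
Log2 fold change of each chemokine ligand after NCS against no treatment in wild-type (black) and 3KR (dark orange) MEFs, with bars for the standard error of the edgeR fit (3 samples per group). Cxcl12 lies at -0.13 in wild-type and -0.56 in 3KR MEFs, and the wide bar of Cxcl2 in wild-type MEFs goes with 1 count in all untreated samples together.

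Cxcl1 encodes KC, a ligand of the neutrophil receptor Cxcr2. It stood at 37.3, 27.4 and 36.2 normalized counts in the untreated wild-type samples and at 44.1, 38.7 and 31.8 after NCS. In 3KR MEFs the values were 292, 279 and 301 without and 382, 389 and 423 with NCS. The wild-type ranges overlapped, whereas each NCS-treated 3KR sample was above each untreated one. The log2 response was 0.45 ± 0.10 in 3KR (adjusted p = 8.05e-04) and 0.17 ± 0.19 in wild-type MEFs (adjusted p = 0.573). The difference between the responses, 0.28 ± 0.21, did not pass the test (adjusted p = 0.556), so a response particular to 3KR MEFs was not shown. Between genotypes, Cxcl1 was 8.53-fold higher in untreated and 10.4-fold higher in NCS-treated 3KR MEFs.

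Cxcl5, whose product LIX acts on the same receptor, supplied most of the counts of this group, 79.9% to 88.3% in every sample. Its values were 234, 193 and 204 normalized counts in untreated and 219, 230.5 and 195 in NCS-treated wild-type samples. In 3KR samples they were 3300.4, 3259 and 3474 without and 4153, 4016 and 4174 with NCS. There was no overlap between treatments in 3KR MEFs and full overlap in wild-type MEFs. The rise of 0.30 ± 0.04 in 3KR MEFs passed the test (adjusted p = 1.22e-05), and the wild-type value of 0.02 ± 0.09 did not (adjusted p = 0.886). For the difference in response, 0.28 ± 0.10, the adjusted p was 0.120. With the replicate number as a block it was 0.27 (adjusted p = 0.0495). Cxcl5 was 15.8-fold higher in 3KR than in wild-type MEFs without treatment and 19.1-fold higher after NCS.

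Cxcl2 and Cxcl3, the genes of the MIP-2 and DCIP-1 ligands of Cxcr2, were at or near the floor in wild-type MEFs. The raw counts of Cxcl2 were 0, 0 and 1 in untreated and 6, 2 and 1 in NCS-treated wild-type samples. The 3KR samples had 16, 24 and 26 without and 23, 22 and 24 with NCS. With 1 count in all untreated wild-type samples together against 9 after NCS, the depth-adjusted ratio was 8.95, with an exact 95% interval of 1.24 to 392 that covers counting error only. The adjusted p of this response was 0.0687, and without both replicate 3 samples 0.0163, a fit that then sets 8 counts against 0. The ratio of untreated 3KR to untreated wild-type samples was 68.8 (66 counts against 1, interval 11.9 to 2759), and after NCS it was 8.47 (69 counts against 9, interval 4.21 to 19.3). In 3KR MEFs the response to NCS was 0.19 ± 0.35 (adjusted p = 0.739).

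Cxcl3 had 2, 3 and 7 raw counts in untreated and 5, 6 and 8 in NCS-treated wild-type samples. In 3KR samples its normalized counts were 127, 141 and 151 without and 165, 179 and 146 with NCS, and the treatments overlapped. Neither response passed the test, with 0.68 ± 0.52 in wild-type (adjusted p = 0.373) and 0.22 ± 0.15 in 3KR MEFs (adjusted p = 0.292). From summed counts, the ratio of 3KR to wild-type was 37.2 without treatment (interval 21.1 to 72.5) and 26.6 after NCS (interval 16.8 to 44.6). Cxcl2 and Cxcl3 are close copies, and 5.84% of the 50-base windows of Cxcl2 transcripts also occur in Cxcl3, and 4.29% of those of Cxcl3 occur in Cxcl2 or other genes, so that a small part of their reads cannot be assigned to 1 gene. Cxcl1 shared no such window with another gene.

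Cxcl10 encodes an interferon-inducible ligand of Cxcr3, a receptor of activated T cells. Its normalized counts were 21.5, 20.3 and 6.21 in untreated and 18.5, 20.3 and 7.96 in NCS-treated wild-type samples. In 3KR samples they were 68.5, 83.2 and 102 without and 93.2, 99.2 and 105 with NCS. Both treatments overlapped in both genotypes, and in each wild-type group the sample with replicate number 3 was the lowest. The response was -0.07 ± 0.39 in wild-type (adjusted p = 0.923) and 0.23 ± 0.23 in 3KR MEFs (adjusted p = 0.489), and the wild-type value changed sign in 3 fits that each left out 1 wild-type sample. Cxcl10 was 5.13-fold higher in 3KR MEFs without treatment and 6.30-fold higher after NCS. Beside it, all 12 interferon-stimulated genes listed were called higher in 3KR MEFs in both treatments. Of all tested genes, 22.1% were called higher without treatment and 22.9% after NCS. The 12 genes had a sum of 30.2 to 37.2 CPM in wild-type samples. In 3KR samples it was 99.0 to 101 CPM without and 77.4 to 80.6 CPM with NCS. This list was chosen with earlier results of these data known, and its link to Cxcl10 was not tested. Cxcl10 overlaps Art3 on the opposite strand, to which 3.59% of its windows belong as well. The mean level of Art3 was -1.70 log2 CPM.

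Cxcl12, or SDF-1, is the ligand of Cxcr4 and Ackr3. It fell after NCS in both genotypes, and the decrease was larger in 3KR MEFs. The normalized counts were 3175, 3166 and 3102 in untreated and 2844, 3014 and 2770.3 in NCS-treated wild-type samples. In 3KR samples they were 4271, 4262 and 4232 without and 2956, 2814 and 2886 with NCS. Every treated sample was below every untreated sample of its genotype, and the 3KR samples were above the wild-type samples only without NCS. The response was -0.13 ± 0.04 in wild-type (adjusted p = 0.00802) and -0.56 ± 0.04 in 3KR MEFs (adjusted p = 3.36e-11), and the difference of -0.42 ± 0.05 passed the test (adjusted p = 1.94e-05). Over all 18 alternatives that difference ranged from -0.45 to -0.39, with adjusted p-values from 1.82e-12 to 0.000205. Without both wild-type replicate 3 samples, the wild-type response was -0.12 (adjusted p = 0.00546) and the difference -0.44. As a description, Cxcl12 was 1.35-fold higher in untreated 3KR MEFs, and after NCS the log2 difference was 0.00 with a standard error of 0.04 and overlapping samples.

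Ccl2 (MCP-1) and Ccl7 (MCP-3) both attract monocytes through Ccr2. Ccl2 stood at 1073, 1011 and 959 normalized counts in untreated and 1339, 1267 and 1114 in NCS-treated wild-type samples. In 3KR samples the values were 2515, 2435 and 2389.5 without and 2523, 2528 and 2692 with NCS. Treated samples were above untreated ones in both genotypes without overlap, which was also true of 18.6% of all genes in wild-type and 24% in 3KR MEFs. The rise of 0.28 ± 0.06 in wild-type MEFs passed the test (adjusted p = 8.89e-04) and stayed at 0.31 without both replicate 3 samples (adjusted p = 8.00e-07). In 3KR MEFs the value was 0.08 ± 0.05 (adjusted p = 0.278). The difference between the responses, -0.20 ± 0.08, had an adjusted p of 0.185. It passed with the replicate number as a block (-0.21, adjusted p = 0.0213), without the wild-type NCS replicate 3 sample (-0.27, adjusted p = 0.0161) and without both wild-type replicate 3 samples (-0.24, adjusted p = 0.00527). Ccl2 was 2.40-fold higher in untreated and 2.08-fold higher in NCS-treated 3KR MEFs. It overlaps Gm17268 on the opposite strand, a gene that did not pass the filter on low counts.

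Ccl7, unlike Ccl2, was not called in wild-type MEFs, and whether both genes differed in response was not tested. Its normalized counts were 813, 776 and 715 in untreated and 793, 787 and 662 in NCS-treated wild-type samples, which overlapped. The 3KR samples had 2345, 2362 and 2317 without and 2444, 2502 and 2592 with NCS and did not overlap. The response was -0.05 ± 0.06 in wild-type (adjusted p = 0.664) and 0.10 ± 0.05 in 3KR MEFs (adjusted p = 0.144), and the difference between them 0.15 ± 0.08 (adjusted p = 0.388). With only the 3KR samples in the fit the 3KR response was 0.10 and passed the test (adjusted p = 0.00934), and so it did without both wild-type replicate 3 samples, which enter its estimate of spread (0.10, adjusted p = 0.0155). The ratio of Ccl7 to Ccl2 counts was 0.745 to 0.767 in untreated wild-type, 0.593 to 0.622 in NCS-treated wild-type, 0.932 to 0.970 in untreated 3KR and 0.963 to 0.989 in NCS-treated 3KR samples. The NCS-treated wild-type samples were thus the lowest in this ratio. Ccl7 was 3.03-fold higher in untreated and 3.36-fold higher in NCS-treated 3KR MEFs.

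Ccl5 (RANTES), a chemokine that attracts T cells and monocytes, was counted in 6 to 49 reads per sample. The raw counts were 20, 6 and 8 in untreated and 16, 16 and 7 in NCS-treated wild-type samples. The 3KR samples had 19, 40 and 42 without and 33, 41 and 49 with NCS. Treatments overlapped in both genotypes. The responses of 0.25 ± 0.46 in wild-type (adjusted p = 0.753) and 0.41 ± 0.33 in 3KR MEFs (adjusted p = 0.373) did not pass the test. With these standard errors, changes of this size are neither shown nor excluded. Ccl5 was 3.06-fold higher in untreated and 3.42-fold higher in NCS-treated 3KR MEFs.

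Cx3cl1, or fractalkine, is a membrane-bound chemokine that is shed as a soluble ligand of Cx3cr1. Its normalized counts were 4989.8, 4753 and 4690.3 in untreated and 4486, 4569 and 4827 in NCS-treated wild-type samples, with overlap. In 3KR samples they were 8220.2, 8189 and 8145 without and 6983, 6827 and 6738 with NCS, with every treated sample below every untreated one. The fall of -0.26 ± 0.03 in 3KR MEFs passed the test (adjusted p = 2.44e-06). The wild-type response was -0.06 ± 0.03 (adjusted p = 0.208) and became -0.11 without both replicate 3 samples (adjusted p = 0.00136). The difference between the responses was -0.19 ± 0.05 (adjusted p = 0.0212). It missed the threshold in 6 of 18 alternatives, each of which left out 1 sample, with adjusted p-values from 0.00128 to 0.0732 over all 18. The 6 samples were wild-type untreated replicate 2, all 3 untreated 3KR samples and 3KR NCS replicates 2 and 3, without which the difference was -0.20 to -0.18. Without both wild-type replicate 3 samples it was -0.15 (adjusted p = 0.00251). Cx3cl1 was 1.69-fold higher in untreated and 1.48-fold higher in NCS-treated 3KR MEFs. Fractalkine is also a product of endothelial cells, and the sum of 9 endothelial markers was 12.6 to 14.9 CPM in wild-type, 32.9 to 35.7 CPM in untreated 3KR and 21.6 to 22.6 CPM in NCS-treated 3KR samples. Of the 6 markers tested, Emcn was lower in 3KR MEFs, with 50.4 against 9.21 mean normalized counts without treatment, and Erg alone was higher, with a mean of 161 ± 12.5 normalized counts (SD, n = 3) in untreated wild-type and 909.6 ± 53.3 in untreated 3KR MEFs. Pecam1 was at 0 to 9, Tie1 at 0 or 1 and Cdh5 at 15 to 26 raw counts per sample, Kdr and Egfl7 had higher means of 127 and 148 normalized counts in untreated wild-type and 134 and 165 in untreated 3KR MEFs, and the log2 differences of Cdh5 and Kdr between untreated genotypes were 0.26 ± 0.33 (adjusted p = 0.560) and 0.07 ± 0.13 (adjusted p = 0.704).

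Between genotypes, all 10 genes were higher in untreated 3KR than in untreated wild-type MEFs, with no overlap of samples, and 9 of 10 were higher after NCS. Across all tested genes, 27% were higher without overlap in 3KR MEFs in each treatment, and 22.1% and 22.9% were called higher. The genes were listed with this difference in view, so nothing is read from these counts. The median log2 difference of the 10 genes was 1.99 without treatment and 2.22 after NCS, against 0.00 over all tested genes in both. The size varied widely among them. Log2 differences in untreated MEFs ranged from 0.43 ± 0.04 for Cxcl12 and 0.76 ± 0.03 for Cx3cl1 through 1.26 ± 0.06 for Ccl2 to 5.15 ± 0.28 for Cxcl3 and 5.62 ± 0.74 for Cxcl2, the last against 1 count. In bulk RNA, fewer cells of a type and less RNA per cell cannot be told apart. The macrophage markers were higher along with the chemokines, 16 of 17 in untreated and 14 of 17 in NCS-treated 3KR MEFs at the adjusted threshold and none lower, and their part in the chemokine levels was not tested.

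The remaining chemokine ligands gave a comparison with genes outside the list. Of 31 named, 27 had an identifier and 14 passed the filter. In 3KR MEFs 10 of these 14 were higher and none lower, both without treatment and after NCS, where 22.1% and 22.9% of all tested genes were higher, and the median log2 differences were 1.04 and 0.92. The most abundant was Cxcl14, a stromal chemokine, with a mean of 2302 ± 41.9 normalized counts (SD, n = 3) in untreated wild-type and 6543 ± 179 in untreated 3KR MEFs, 2.83-fold higher (adjusted p = 2.25e-20). Its response to NCS was -0.05 ± 0.04 in wild-type (adjusted p = 0.379) and -0.05 ± 0.03 in 3KR MEFs (adjusted p = 0.228). Cxcl15, or lungkine, showed a log2 difference of 3.21 ± 0.18 without treatment (adjusted p = 5.88e-13), and Ccl20, the ligand of Ccr6, one of 1.51 ± 0.18 (adjusted p = 2.54e-07). Ccl9 and Cxcl16 differed by less, with 0.66 and 0.54. These ligands are part of a chemokine group already known to be high in 3KR samples, so they are no independent evidence of a direction.

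None of the 14 other ligands passed the test for NCS in wild-type MEFs with edgeR, where 2 had an unadjusted p under 0.05, nor with the Wald test of DESeq2. With the replicate number as a block 2 of them passed, and 1 passed with a minimum of 10 counts per sample, without wild-type untreated replicate 2, without wild-type NCS replicate 3 and without 3KR NCS replicate 2. In 3KR MEFs Ppbp, the platelet basic protein and a further Cxcr2 ligand, rose by 0.62 ± 0.14 (adjusted p = 0.00116) alongside Cxcl1 and Cxcl5. Its level went from 139 ± 19.4 to 214 ± 18.4 normalized counts. Cxcl15 went the opposite way in 3KR MEFs, from 237 ± 21.3 to 153 ± 5.54 normalized counts, a log2 response of -0.63 ± 0.14 (adjusted p = 0.00139). In wild-type MEFs it stood at 25.6 ± 10.4 without and 37.8 ± 6.55 with NCS. The difference between these responses, -1.20 ± 0.28, passed with edgeR (adjusted p = 0.0150) but not with the Wald test of DESeq2, nor without wild-type untreated replicate 1.

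**Figure D3:**
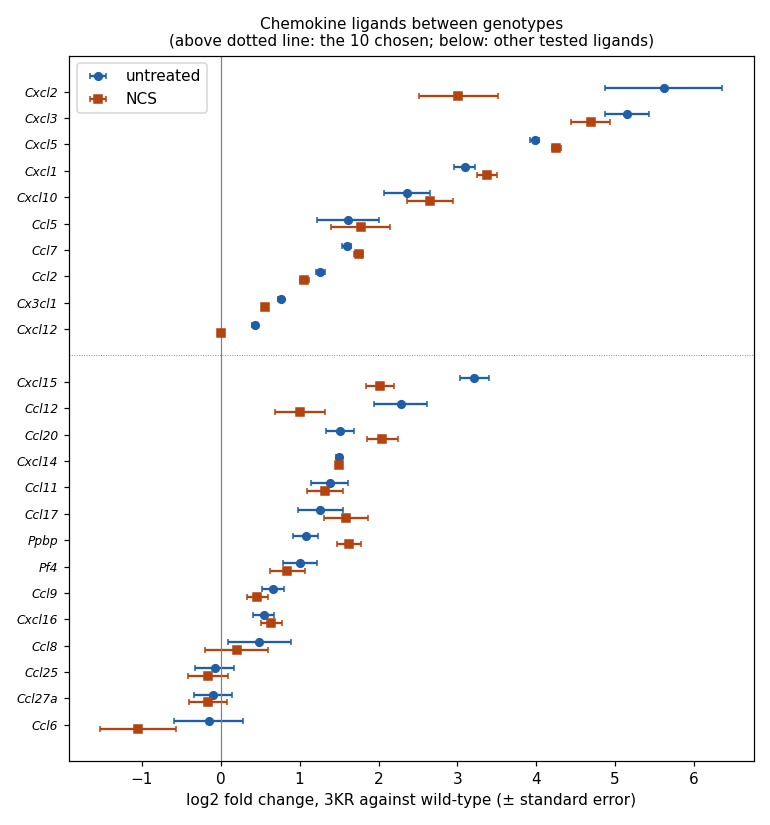
Log2 difference between 3KR and wild-type MEFs for the 10 chosen chemokine ligands (above the dotted line) and the 14 other tested ligands (below it), untreated (blue circles) and after NCS (dark orange squares), with standard errors of the edgeR fit and 3 samples per group. The 10 chosen genes range from 0.43 to 5.62 without treatment, and among the other ligands Cxcl15 with 3.21 stands highest.

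Receptors for these ligands were mostly low, with 12 of 23 passing the filter. Cxcr4, through which Cxcl12 signals, rose after NCS in both genotypes. It stood at 162, 139 and 146 normalized counts in untreated and 264, 289 and 227 in NCS-treated wild-type samples. The 3KR samples had 193, 175 and 185 without and 319, 269.5 and 286 with NCS. No treated sample was as low as an untreated one. The response was 0.80 ± 0.11 in wild-type (adjusted p = 8.08e-06) and 0.67 ± 0.11 in 3KR MEFs (adjusted p = 4.39e-05), and the difference of -0.13 ± 0.16 did not pass the test (adjusted p = 0.747).

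Ackr3, the atypical receptor that takes up Cxcl12, rose as well. Its normalized counts were 2855, 2852 and 2839 in untreated and 3655, 3696 and 3751 in NCS-treated wild-type samples. The 3KR samples had 1301, 1324 and 1287 without and 1785, 1756 and 1696 with NCS, all below the wild-type samples. The responses were 0.37 ± 0.03 in wild-type (adjusted p = 1.46e-08) and 0.42 ± 0.04 in 3KR MEFs (adjusted p = 8.84e-09), and Ackr3 was lower in 3KR MEFs by a log2 difference of -1.13 ± 0.04 without treatment (adjusted p = 1.44e-17). Thus the ligand Cxcl12 fell after NCS while both of its receptors rose, in each genotype.

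Cx3cr1, the fractalkine receptor and a gene of macrophages, fell together with its ligand in 3KR MEFs. Values were 221, 173 and 197 normalized counts in untreated and 186, 203 and 171 in NCS-treated wild-type samples. In 3KR samples they were 463, 458 and 450.1 without and 294, 307 and 304 with NCS. The wild-type samples overlapped and the 3KR samples did not. The 3KR response was -0.60 ± 0.09 (adjusted p = 1.17e-05), the wild-type response -0.09 ± 0.10 (adjusted p = 0.581), and the difference of -0.51 ± 0.13 passed the test (adjusted p = 0.0325). In the same 3KR samples the 17 macrophage markers had a sum of 276 to 280 CPM without NCS and 246 to 253 CPM with it. Of these 17, 2 were called lower and none higher, which is near the background of 15% of all tested genes called lower. The part of the macrophage markers in the fall of Cx3cr1 was not tested.

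**Figure D4:**
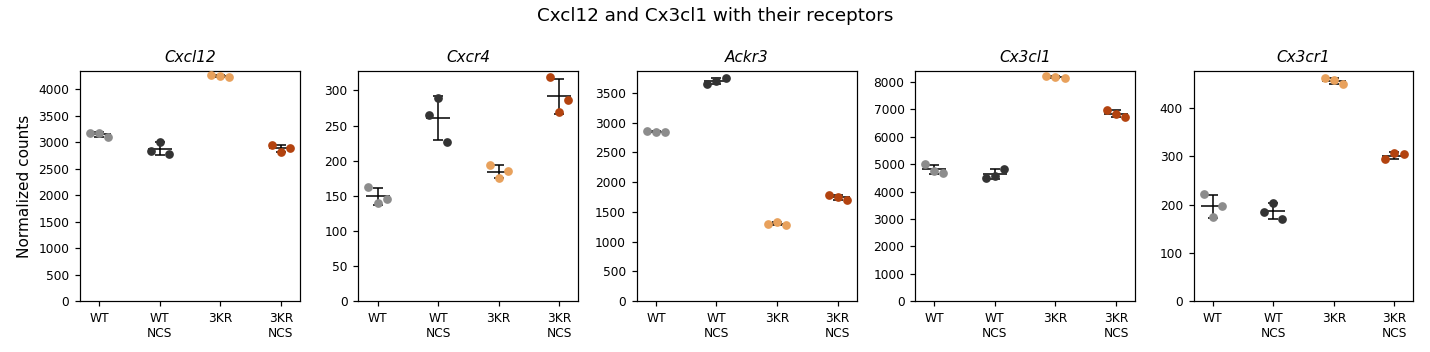
Normalized counts (linear axes from 0) of Cxcl12 with its receptors Cxcr4 and Ackr3, and of Cx3cl1 with its receptor Cx3cr1, in the 12 samples; points are samples, long bars the mean and short bars the SD of 3 samples. Cxcl12 is lower and both its receptors higher after NCS in each genotype, and Cx3cl1 and Cx3cr1 are lower after NCS in 3KR MEFs.

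Ccr2, the receptor of Ccl2 and Ccl7, had 0 counts in all 6 wild-type samples, which allows up to 3 counts in each. It had 23, 27 and 28 raw counts in untreated and 12, 14 and 17 in NCS-treated 3KR samples. It is known from monocytes and macrophages. The macrophage markers given above had a sum of 135 to 162 CPM in wild-type and 246 to 280 CPM in 3KR samples, and their part in the Ccr2 counts was not tested. Cxcr2, the receptor of Cxcl1, Cxcl2, Cxcl3 and Cxcl5, was at 7 to 23 raw counts in every sample, and Cxcr3, the receptor of Cxcl10, was at 0 in all samples but 1 with 2 counts. Ackr4, an atypical receptor that scavenges CC chemokines, was lower in 3KR MEFs, with a log2 difference of -1.57 ± 0.35 without treatment (adjusted p = 7.08e-04). Ccr10 fell after NCS in 3KR MEFs, with a log2 response of -1.68 ± 0.52 (adjusted p = 0.0170), on 2 to 14 counts per sample. Cxcr6, the receptor of Cxcl16, stood at 232 to 305 normalized counts in the means of the 4 groups.

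Genes of the pathways that induce chemokines were counted from a list of cytokines, receptors, kinases, NF-kappaB subunits and interferon factors, of which 46 were in the files and 43 passed the filter. After NCS, 11 rose and 1 fell in wild-type MEFs, and 11 rose and 10 fell in 3KR MEFs. The shares over all tested genes were 14.3% higher and 12.4% lower in wild-type and 15.8% higher and 15% lower in 3KR MEFs. The cytokine genes Il1a, Il1b and Ifnb1 did not pass the filter. Map3k7, the kinase TAK1 upstream of NF-kappaB, rose in both genotypes, by 0.29 ± 0.03 in wild-type (adjusted p = 1.23e-07) and 0.26 ± 0.03 in 3KR MEFs (adjusted p = 6.17e-07). Il1r1, the interleukin-1 receptor, rose by 0.30 ± 0.04 (adjusted p = 7.22e-07) and 0.18 ± 0.03 (adjusted p = 2.10e-04). Chuk, the kinase IKK-alpha, rose by 0.26 ± 0.04 in wild-type MEFs (adjusted p = 3.28e-05), and the adaptor Traf2 fell, with -0.14 ± 0.05 (adjusted p = 0.0457).

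The response of 5 of these 43 genes differed between the genotypes, 3 with a higher and 2 with a lower value in 3KR MEFs, against 3.73% of all tested genes. Nfkbiz, the nuclear cofactor IkappaB-zeta that NF-kappaB needs at a subset of its targets, went from 1321 ± 86.7 to 1653 ± 53.8 normalized counts in wild-type and from 976 ± 17.6 to 1881 ± 96.7 in 3KR MEFs. The difference was 0.62 ± 0.07 (adjusted p = 1.29e-05). Il6, a cytokine gene with NF-kappaB sites of its own, went from 147 ± 1.12 to 119 ± 22.4 in wild-type and from 158 ± 14.1 to 251 ± 26.9 in 3KR MEFs, a difference of 0.98 ± 0.18 (adjusted p = 0.00211). For Bcl3, another nuclear IkappaB protein, it was 0.34 ± 0.09 (adjusted p = 0.0279). Among the lower ones was Tlr2, a Toll-like receptor, with a difference of -0.66 ± 0.18 (adjusted p = 0.0392). The interferon-stimulated list had 5 of 12 genes lower and none higher after NCS in 3KR MEFs, where 15% of all tested genes were lower. In wild-type MEFs 1 of the 12 was higher and none lower, where 14.3% of all tested genes were higher.

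Without treatment 19 of the 43 pathway genes were higher and 7 lower in 3KR than in wild-type MEFs, and after NCS 20 were higher and 7 lower. The background was 22.1% higher and 23.6% lower without treatment. Il1r1 was higher by 1.05 ± 0.03 on the log2 scale (adjusted p = 1.99e-17) and Tlr2 by 1.69 ± 0.12 (adjusted p = 6.69e-11). Il33, an alarmin, with -1.66 ± 0.10 (adjusted p = 8.49e-13), Il1rap, the accessory chain of the interleukin-1 receptor, with -0.78 ± 0.05 (adjusted p = 1.22e-12), and Ifngr2, a chain of the interferon-gamma receptor, with -0.61 ± 0.04 (adjusted p = 1.19e-11), were lower. The 2 chains of the interleukin-1 receptor thus differed in opposite directions. Tnfrsf1a, the main receptor of tumor necrosis factor and the most abundant gene of the list, stood at 7140.2 ± 241 normalized counts in untreated wild-type and 8587 ± 202 in untreated 3KR MEFs.

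Many chemokine transcripts are short-lived because proteins such as tristetraprolin (Zfp36) and regnase-1 (Zc3h12a) direct their decay. All 8 genes listed for this step passed the filter. In wild-type MEFs NCS raised 2 and lowered 1 of them, where 14.3% of all tested genes rose and 12.4% fell. In 3KR MEFs it raised 4 and lowered 1, where 15.8% of all tested genes rose and 15% fell. Zc3h12a rose by 0.42 ± 0.07 in wild-type (adjusted p = 7.54e-05) and 0.56 ± 0.07 in 3KR MEFs (adjusted p = 1.85e-06), and Zfp36l2, the most abundant, by 0.32 ± 0.04 (adjusted p = 4.33e-07) and 0.28 ± 0.04 (adjusted p = 2.45e-06). Zfp36 went from 1642 ± 124 to 1645 ± 66.0 normalized counts in wild-type and from 1346 ± 50.2 to 1715 ± 30.6 in 3KR MEFs, and the difference in response of 0.35 ± 0.07 passed the test (adjusted p = 0.00626). Hnrnpd, which encodes AUF1, differed by 0.20 ± 0.05 (adjusted p = 0.0194). Tia1 fell in both genotypes, with -0.20 ± 0.05 in wild-type (adjusted p = 0.00161) and -0.15 ± 0.05 in 3KR MEFs (adjusted p = 0.0163). Zfp36l1 was higher in 3KR MEFs by 0.47 ± 0.06 without treatment (adjusted p = 4.18e-07).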

How the data were processed

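Total RNA of 12 MEF samples was sequenced from libraries of a stranded mRNA kit. Per the labels, the authors deposited 1 table of raw counts per sample, in reads per Ensembl gene, neither normalized nor filtered. The submitters' processing notes name TopHat, HTSeq, DESeq and mm9, without versions, and whether counting used the strand is not given in the sources used here, so genes that overlap on opposite strands may hold each other's reads. Symbols, exon lengths and chromosomes were read from GENCODE M21 (GRCm38), in which 32919 of 37991 identifiers were found. Promoters were read from RefSeq (GRCm38.p6).

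Groups were taken from the sample titles. Genes were filtered with filterByExpr and TMM factors were computed. The 15327 genes that passed were fitted in edgeR 4.0.16 (R 4.3.3), all 12 samples together with the group as the only term, and contrasts were tested two-sided by its quasi-likelihood F test at a Benjamini-Hochberg adjusted p of 0.05. The common biological coefficient of variation was 3.95%. For normalized counts, each count was divided by its sample's DESeq2 size factor (version 1.42.0). A level at or under 3 counts is the floor, and exact intervals of count ratios cover counting error only. The scripts were tested on simulated data.

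The 10 genes and all lists and tests were chosen with earlier results of these data known. Genes named outside the 10 are, for each list, up to 3 per direction and comparison with the lowest p among those called, up to 3 with the highest mean level, and for each of the 10 genes the 3 with the highest Pearson correlation. A few were named for their role, after their values were seen, as receptors or markers of a gene described, and some genes that the rule names are not reported here.

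The labels do not say what a replicate number stands for, so the numbers were checked as a pairing. Deviations from the group means correlated at 0.144, 0.139 and 0.318 for same-numbered untreated and NCS-treated wild-type samples. In 3KR MEFs the values were -0.098, -0.088 and -0.021. Replicate 3 stood apart in both wild-type groups, and deviations within a group cancel out. The positive values can therefore come from these samples alone, and a pairing of the other wild-type samples is not shown. Alternatives were the size factors of DESeq2, its Wald test, no filter, a minimum of 10 counts per gene and sample, fits to the compared groups alone, a replicate block, each sample left out and both wild-type replicate 3 samples left out.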

Additional observations from a re-analysis of the deposited data

Results flagged for a closer look

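The response of Cxcl12 to NCS differed between the genotypes by -0.42 on the log2 scale (3KR minus wild-type, edgeR adjusted p = 1.94e-05), and that of Cx3cl1 by -0.19 (adjusted p = 0.0212). Both were singled out because the test of the difference itself passed the threshold. In each case the 3KR samples moved from a higher untreated level toward the wild-type level. Mean Cxcl12 fell from 4255 to 2885 normalized counts in 3KR and from 3148 to 2876 in wild-type MEFs, and mean Cx3cl1 from 8185 to 6849 in 3KR MEFs, with 4811 and 4627 in wild-type MEFs. Sex and genotype cannot be told apart in these differences. The samples tested here also gave the genotype difference that was known when the genes were listed. The test is therefore not independent of that choice.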

How the results depend on the processing

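With the replicate block (the number in the sample titles), the difference in response was called for 1379 genes in place of 572. It was called for 4 chemokines in place of 2, Cxcl5 and Ccl2 being added. The numbers correlate in wild-type samples only, where replicate 3 stood apart in both groups. Ccl7 in 3KR MEFs also passed with the block (adjusted p = 0.0273). The block changed no other call among the 10 genes. Leaving out both wild-type replicate 3 samples gave 1842 genes with a difference in response, 4 chemokines called for NCS in wild-type MEFs in place of 2, and a log2 difference of -0.018 between genotypes for Cxcl12 after NCS. With a minimum of 10 counts per sample, 6 chemokines were called between untreated and 5 between NCS-treated genotypes in place of 10 and 9, because fewer were tested. In the main fit 45.7% of all tested genes were called between untreated and 46.5% between NCS-treated genotypes. The chemokines were listed with this difference in view, so nothing is read from these counts.

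With single samples left out, the chemokines called ranged from 2 to 4 for NCS in wild-type MEFs and from 1 to 3 for the difference in response, and genes with a difference in response from 345 to 1159, the latter without wild-type untreated replicate 3. Log2 values that changed sign in these fits, none of them called, ranged from -0.42 to 0.24 for Cxcl10, -0.092 to 0.033 for Ccl7, -0.036 to 0.11 for Cxcl5 and -0.0092 to 0.81 for Ccl5 (NCS in wild-type MEFs), from -0.40 to 0.42 for Ccl5 and -0.012 to 0.65 for Cxcl10 (difference in response), and from -0.017 to 0.041 for Cxcl12 (genotypes after NCS). Scaling by library total moved the untreated 3KR means to 4343 for Cxcl12, 2389.9 for Ccl7 and 8355 for Cx3cl1, by more than 1 SD. The cause of these changes was not tested. Scaling moved the median of all genes by at most 0.05. Low counts limit Cxcl2, Cxcl3, Cxcl10 and Ccl5 in wild-type MEFs.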

Other observations

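Genes whose log2 CPM followed each chemokine most closely over the 12 samples were read off as a description. The samples share 4 groups and their libraries, and 45.7% of tested genes differed between untreated genotypes, so no p is given. Pearson's r was 0.998 for Adam33, 0.997 for Crabp1 and 0.996 for Cxcl5 with Cxcl1, and 0.997 for Cxcl5 with Ccl7. The 3 genes nearest to Cxcl5 were Xist, Hoxd13 and Tnn, all at r = 0.998, and the first is the marker of sex named in the report. Cxcl3 was closest to Adamts2 and Dock9, both at 0.995, and Tnc at 0.993. Cx3cl1 was closest to Erg and Cyp26b1, both at 0.996, and Steap3 at 0.993. Erg was the only tested marker of the endothelial list that was higher in 3KR MEFs. Its mean went from 909.6 to 502 normalized counts with NCS in 3KR MEFs, where Cx3cl1 also fell. A part of endothelial cells in this was not tested. Ccl2 was closest to Lgals3, Tsc22d1 and Pcsk6, at 0.993 to 0.994, and Ccl7 after Cxcl5 to Tmem45a at 0.996 and Cdh3 at 0.995. Cxcl12 followed Tbl1xr1 at 0.980 and Sned1 at 0.979. Cxcl10 was closest to Gas5 at 0.987, Ctla2a at 0.983 and Cd9 at 0.982. The low-count genes Cxcl2, nearest to Cdk19 at 0.984, Ppp1r14a at 0.979 and Crybg1 at 0.977, and Ccl5, nearest to Ndufs7 at 0.947, Lsm4 at 0.942 and Oxct1 at 0.939, rested on few counts in wild-type samples.

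Of the markers of cells other than fibroblasts, the Schwann cell list of 8 genes ran against the chemokines, with 175 to 187 CPM in sum in wild-type and 39.3 to 46.0 CPM in 3KR samples. Neutrophil markers, the cells that Cxcr2 ligands attract, were at no more than 0.946 CPM in sum in any sample. Epithelial markers summed to 2.34 to 3.32 CPM, but single genes of this list differed between genotypes in opposite directions. Of its 3 tested genes, 2 were called higher and 1 lower in untreated 3KR MEFs, where 22.1% of all tested genes were higher and 23.6% lower. Mean Cdh1 was 8.73 normalized counts in untreated wild-type and 44.8 in untreated 3KR MEFs, and mean Krt18 74.7 and 49.6.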
